A study of Mus musculus with 3 samples.

Results

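The genes described here are the lysosomal proteases of antigen processing, 8 cathepsins out of the 32293 features counted in single cells of the aged mouse thymus. They were taken by symbol: the cysteine endopeptidases Ctsl, Ctss and Ctsk, Ctsb, which cuts within and at the ends of proteins, the aminopeptidase Ctsh, the carboxypeptidase Ctsz, the dipeptidyl peptidase Ctsc and the aspartic endopeptidase Ctsd. All 8 were counted in all 3 libraries.

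Cathepsins degrade proteins in endosomes and lysosomes, and in antigen-presenting cells they also cut the invariant chain that holds class II molecules until a peptide can be loaded. Cathepsin L does this in cortical thymic epithelial cells, the cells that select developing T cells for recognition of self class II molecules, whereas cathepsin S does it in dendritic cells and B cells. Cathepsin K is best known for cutting collagen, and cathepsin C for activating the granule proteases of blood cells.

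The 3 libraries hold stromal cells depleted of CD45+ blood cells from thymi of untreated C57BL/6 mice aged 20 months, and each group is 1 library of cells pooled over several thymi. The Foxn1Lin female and Foxn1Lin male libraries came from lineage-tracing mice, in which Cre driven by Foxn1, a gene of thymic epithelium, switches on tdTomato in any cell with a history of Foxn1 expression, so that the trace follows an epithelial past and not the present state of a cell. The wild-type male library is labelled as carrying no such alleles. Its cell type is labelled CD45-PECAM1+ in one field and CD45- in its title, and the dissociation protocol of all 3 libraries names female mice; these labels could not be reconciled, and since the endothelial cells defined below were only 864 of the 5478 barcodes of the wild-type male, the library as a whole was not one of PECAM1+ cells. For this reason no difference between libraries is read as one of sex or genotype. With 1 library per group, no test between the groups was possible, and tests below compare cell classes across the 3 libraries.

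Cells were assigned by the unique molecular identifiers (UMIs, 1 per captured transcript) of marker genes in each barcode: thymic epithelial cells (TEC) had at least 2 UMIs of Epcam, endothelial cells (EC) at least 2 of Pecam1, fibroblasts (FB) at least 2 of Pdgfra and mural cells at least 5 of Rgs5 and Acta2 together. In the order Foxn1Lin female, Foxn1Lin male and wild-type male, which is kept throughout, the TEC numbered 478, 431 and 882 barcodes of 8616, 3583 and 5478. Barcodes that met the rule for more than 1 class (529, 173 and 430) were dropped. Within TEC, Prss16, a protease of cortical TEC that the rules did not use, was looked at in groups set apart by other genes. Barcodes with at least 2 UMIs of Psmb11, a proteasome subunit of cortical TEC, held Prss16 at 3895, 699 and 3786 UMIs per 1000000 UMIs of all genes (CPM). Barcodes with at least 2 UMIs of Aire, the regulator of medullary TEC, held it at 18.8, 10.3 and 21.9 CPM. In the Psmb11 group Prss16 was thus lowest in the Foxn1Lin male. Other markers of the classes are not given here. The libraries held 33386621 to 61258534 UMIs in called barcodes. Between 9.46% and 26.5% of the UMIs of a library lay outside called cells, the most in the Foxn1Lin female, and 3 to 14 barcode sequences were shared between a pair of libraries.

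In the mouse genome (GRCm38, GENCODE vM21 annotation) Ctsl lies at chr13:64359337-64370890 on the minus strand, Ctss at chr3:95526786-95556403 and Ctsk at chr3:95499256-95509362, both on the plus strand. Ctsk and Ctss are direct neighbours with 17423 bases and 0 annotated genes between them, yet their transcripts were highest in different classes. Ctsd (chr7:142375911-142388038, minus strand), Ctsc (chr7:88278085-88310888, plus strand), Ctsb (chr14:63122462-63145923, plus strand), Ctsh (chr9:90054152-90076089, plus strand) and Ctsz (chr2:174427493-174439039, minus strand) lie apart. Ctsd overlaps Gm49369, Ctsl the pseudogene Gm49230 and Ctss the pseudogene Hmgb1-ps5, each on the same strand. Reads of such a pair could be shared between them or dropped where the annotation used for counting held both genes, which was not checked. Ctsb overlaps Fdft1, Ctsz overlaps Nelfcd, Ctsc overlaps Gm26522 and Ctsl also overlaps Gm47123, each on the opposite strand.

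The starts of 4 members are shown because the results turn on them: Ctsl and Ctss changed in opposite directions within TEC, Ctsk was highest in FB next door to Ctss, and Ctsd fell together with Ctsl in Aire-high TEC. Each sequence is the RefSeq window (GRCm38.p6) from 250 bases before to 50 bases after the annotated start, 5′ to 3′ on the strand of the gene, in lower case with matches to CACGTG, the core of the E-box bound by TFEB and its relatives, or to GGGCGG on either strand, the GC box, in capitals.
Ctsl, chr13:64370471-64370770: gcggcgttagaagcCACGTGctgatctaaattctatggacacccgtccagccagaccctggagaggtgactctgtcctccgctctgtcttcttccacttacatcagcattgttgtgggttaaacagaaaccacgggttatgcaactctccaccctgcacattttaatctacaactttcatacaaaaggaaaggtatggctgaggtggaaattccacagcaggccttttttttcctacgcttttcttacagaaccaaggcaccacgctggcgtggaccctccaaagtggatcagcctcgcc
Ctss, chr3:95526536-95526835: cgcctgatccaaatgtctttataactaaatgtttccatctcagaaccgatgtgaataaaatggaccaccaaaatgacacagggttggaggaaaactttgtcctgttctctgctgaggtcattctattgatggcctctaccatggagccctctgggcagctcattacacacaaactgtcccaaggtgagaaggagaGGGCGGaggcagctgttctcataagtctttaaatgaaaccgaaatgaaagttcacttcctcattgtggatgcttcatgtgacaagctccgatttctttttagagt
Ctsk, chr3:95498960-95499259: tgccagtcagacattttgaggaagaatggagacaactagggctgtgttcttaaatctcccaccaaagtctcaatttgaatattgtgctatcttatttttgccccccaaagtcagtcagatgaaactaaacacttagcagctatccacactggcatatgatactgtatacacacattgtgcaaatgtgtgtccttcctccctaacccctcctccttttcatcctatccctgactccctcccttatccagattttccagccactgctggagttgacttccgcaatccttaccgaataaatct
Ctsd, chr7:142387778-142388077: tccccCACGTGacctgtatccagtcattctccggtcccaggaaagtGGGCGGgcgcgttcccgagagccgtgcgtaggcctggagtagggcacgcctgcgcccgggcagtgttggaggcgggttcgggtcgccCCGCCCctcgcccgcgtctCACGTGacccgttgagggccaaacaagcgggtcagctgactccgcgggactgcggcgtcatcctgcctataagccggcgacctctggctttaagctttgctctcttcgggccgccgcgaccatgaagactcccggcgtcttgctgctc
The Ctsl window held 1 CACGTG, at position -236 from the start, and the Ctsd window held 2, at -245 and -98, besides GC boxes at -204 and -117. The Ctss window held 1 GC box at -55 and no CACGTG, and the Ctsk window held neither motif. Of 32851 promoter windows of the same length, 7.15% held CACGTG and 35.7% held GGGCGG on either strand. The Ctsd window was GC-rich, with 33 CpG dinucleotides against a median of 7 over all windows, whereas Ctsl had 10, Ctss 5 and Ctsk 2. The RefSeq start of Ctsl lies 370 bases, and that of Ctsd 211 bases, downstream of the GENCODE start, so a window on the GENCODE start would show other bases. Windows were found for 6 of the 8 members, and Ctsb and Ctsh had none.

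Levels are given as CPM of the UMIs summed over the barcodes of a class in a library, with exact Poisson 95% intervals where printed, which cover counting error only. Differences between classes were tested with edgeR on these sums, with the library as a block and p-values adjusted by Benjamini-Hochberg over all genes tested. The fitted log2 fold changes (± SE, n = 3 libraries) rest on edgeR's scaling of the libraries and can differ from the ratio of the CPM values. In these sums, fewer expressing cells and less RNA per cell cannot be told apart.

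Ctsl was highest in TEC in every library. It stood at 3022, 2184 and 1875 CPM in TEC, at 510, 1212 and 877 in EC, at 724, 960 and 821 in FB and at 240, 255 and 180 in mural cells. Mural cells were lowest in all 3 libraries and TEC did not overlap any other class, whereas EC and FB changed places between libraries. TEC exceeded EC by 1.11 ± 0.29 (adjusted p = 0.00923), FB by 1.19 ± 0.29 (adjusted p = 0.00645) and mural cells by 3.10 ± 0.31 (adjusted p = 6.36e-05) on the log2 scale. EC and FB also exceeded mural cells, by 1.99 ± 0.30 (adjusted p = 0.000715) and 1.91 ± 0.29 (adjusted p = 0.00144), and between FB and EC no difference was detected (-0.08 ± 0.28, adjusted p = 0.849).

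The Ctsl excess of TEC over EC and FB did not pass without the cortical-type cells. With the Psmb11-high barcodes left out of TEC, an alternative chosen after the values were seen, the difference was -0.21 ± 0.30 from EC (adjusted p = 0.575) and -0.19 ± 0.30 from FB (adjusted p = 0.622). The difference from mural cells still passed, at 1.71 (adjusted p = 0.00191). The libraries differed here: in the Foxn1Lin male the Psmb11-high cells held 18.5% of the Ctsl UMIs of TEC, and the TEC that were neither Psmb11-high nor Aire-high stood at 2447 CPM, above EC and FB of that library. Droplets without a cell held Ctsl at 1035, 1515 and 1634 CPM, above EC, FB and mural cells, so free Ctsl transcripts were present in all 3 libraries, and their part in the levels of the other classes was not tested.

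Ctss was higher in TEC than in each of the other classes. Its level was 74.0, 57.2 and 53.6 CPM in TEC, 9.30, 3.81 and 8.66 in EC, 6.35, 3.36 and 5.17 in FB and 6.86, 0.364 and 3.67 in mural cells, the Foxn1Lin male mural value being a single UMI (interval 0.0092 to 2.03). TEC stood apart from the other classes, whose values overlapped one another. The fitted excess of TEC was 2.80 ± 0.35 over EC (adjusted p = 0.000144), 3.37 ± 0.35 over FB (adjusted p = 5.92e-05) and 3.96 ± 0.43 over mural cells (adjusted p = 9.65e-05). No difference passed in this fit among EC, FB and mural cells (adjusted p from 0.074 upward), though EC minus mural cells did with class thresholds 1 UMI lower (1.54, adjusted p = 0.0383) and in DESeq2 (1.18, adjusted p = 0.0428). TEC minus mural cells was 3.25 with stricter marker thresholds (adjusted p = 0.00159) and 3.32 without the Foxn1Lin male (adjusted p = 0.00114). Empty droplets held Ctss at 27.0, 36.7 and 50.8 CPM, above EC, FB and mural cells and below TEC, by the least in the wild-type male, and their part in the class levels was not tested. The summed level of 8 blood cell markers (Ptprc, Laptm5, Coro1a, Tyrobp, Fcer1g, Cd52, Cd3e and Cd79a) moved with Ctss, at 673, 423 and 393 CPM in TEC, 140, 59.1 and 176 in EC, 67.3, 15.3 and 17.6 in FB and 94.6, 27.7 and 52.6 in mural cells. With every barcode that held a UMI of Ptprc, Laptm5, Tyrobp or Fcer1g left out, the Ctss excess of TEC was 2.19 over EC (adjusted p = 0.00133), 2.19 over FB (adjusted p = 0.00124) and 2.73 over mural cells (adjusted p = 0.00167). With a narrower set of blood cell genes, chosen after seeing the data (Ptprc, Tyrobp, Cd3e, Cd79a, C1qa, C1qb, Csf1r, Adgre1 and Itgax), it was 3.48, 3.88 and 3.62. The first of these filters took away 84.2%, 75.7% and 81.4% of the Aire-high TEC (at least 2 UMIs of Aire). The part of this in the smaller Ctss excess was not tested.

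Ctsk, the collagen-cutting member, was highest in FB in all 3 libraries. It reached 68.4, 93.3 and 99.3 CPM in FB, 16.2, 7.29 and 13.5 in mural cells, 6.92, 3.02 and 2.53 in EC and 4.27, 3.86 and 3.39 in TEC. FB exceeded EC by 4.40 ± 0.35 (adjusted p = 2.72e-05; 5.04 without the Foxn1Lin female) and mural cells by 2.90 ± 0.34 (adjusted p = 0.000358), and TEC minus FB was -4.87 ± 0.36, a 29.2-fold difference (adjusted p = 1.06e-05). TEC were also below mural cells (-1.97 ± 0.38, adjusted p = 0.00242), whereas TEC and EC were not separated (-0.47 ± 0.37, adjusted p = 0.298). EC minus mural cells was -1.5 ± 0.38 (adjusted p = 0.0117), a call that was lost without the Foxn1Lin male (-1.62, adjusted p = 0.0564) or without the wild-type male (-1.14, adjusted p = 0.137). In TEC 1 barcode held 11 of the 29 Ctsk UMIs of the Foxn1Lin female and 1 held 21 of the 62 of the wild-type male. Empty droplets held Ctsk at 18.6, 31.6 and 31.7 CPM, above TEC, EC and mural cells.

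**Figure D1:**
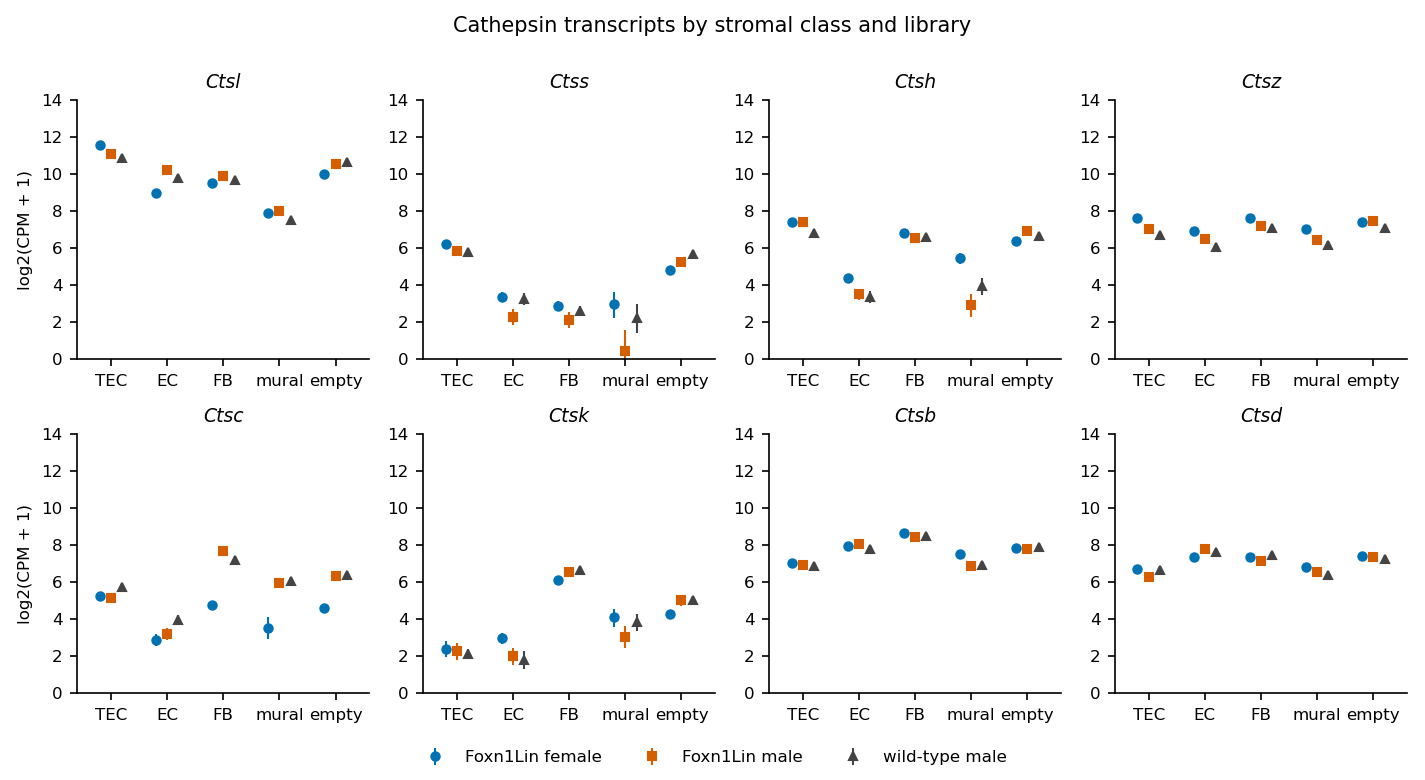
Level of each cathepsin as log2(CPM + 1) (vertical axis) in the 4 stromal classes and in droplets without a cell (horizontal axis), with 1 point per library and bars for exact Poisson 95% intervals of counting error. Ctsl and Ctss were highest in TEC among the 4 classes in all 3 libraries, Ctsk and Ctsb in FB, and Ctsc was far lower in FB of the Foxn1Lin female than of the other libraries.

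Ctsb and Ctsd, the broadly acting degradative members, were lower in TEC than in EC and FB. Ctsb stood at 132, 121 and 116 CPM in TEC, 250, 264 and 219 in EC, 398, 343 and 359 in FB and 183, 119 and 121 in mural cells. Its order was FB, then EC, then TEC and mural cells, which overlapped. TEC was lower than EC (-1.36 ± 0.14, adjusted p = 4.58e-05), lower than FB (-1.90 ± 0.14, adjusted p = 1.01e-05) and, by a smaller margin, lower than mural cells (-0.49 ± 0.14, adjusted p = 0.0143). That last call was lost on leaving out any library: it was -0.36 without the Foxn1Lin female (adjusted p = 0.0674), -0.57 without the Foxn1Lin male (adjusted p = 0.0562) and -0.50 without the wild-type male (adjusted p = 0.124). It was also lost with no filter on low counts (-0.40, adjusted p = 0.0737) and without the library block (-0.51, adjusted p = 0.0646). FB exceeded EC by 0.54 ± 0.13 (adjusted p = 0.00989), which was also lost without the wild-type male (0.53, adjusted p = 0.128) or without the library block (0.54, adjusted p = 0.0579). Empty droplets held Ctsb at 234, 219 and 240 CPM, above TEC and mural cells. EC and FB exceeded mural cells by 0.87 ± 0.14 (adjusted p = 0.000956) and 1.41 ± 0.14 (adjusted p = 0.00013).

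Ctsd was at 105, 78.7 and 102 CPM in TEC, 163, 223 and 198 in EC, 167, 144 and 180 in FB and 113, 93.7 and 82.4 in mural cells. TEC and mural cells overlapped at the low end, and EC and FB overlapped at the high end. TEC was lower than EC (-1.41 ± 0.19, adjusted p = 0.000203) and FB (-1.11 ± 0.18, adjusted p = 0.000817) and was not separated from mural cells (-0.33 ± 0.18, adjusted p = 0.161). EC exceeded mural cells by 1.08 ± 0.19 (adjusted p = 0.00159) and FB did so by 0.78 ± 0.18 (adjusted p = 0.0126), the second of which was lost without the wild-type male (0.68, adjusted p = 0.154).

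The aminopeptidase Ctsh was high in TEC and FB and low in EC and mural cells. It was at 171, 168 and 114 CPM in TEC, 113, 93.8 and 97.3 in FB, 20.1, 10.5 and 9.33 in EC and 42.6, 6.56 and 14.7 in mural cells. TEC exceeded EC by 3.22 ± 0.38 (adjusted p = 0.000118) and mural cells by 2.71 ± 0.39 (adjusted p = 0.000512), and FB exceeded EC by 2.98 ± 0.38 (adjusted p = 0.000257) and mural cells by 2.48 ± 0.39 (adjusted p = 0.00161). The FB excess over mural cells was lost without the wild-type male (2.42, adjusted p = 0.0522) and was 3.16 without the Foxn1Lin female (adjusted p = 0.000332). The TEC excess over mural cells was 3.39 without the Foxn1Lin female (adjusted p = 0.00012) and 2.13 without the Foxn1Lin male (adjusted p = 0.00526). TEC lay above FB in CPM in 3 of 3 libraries, yet the fitted difference, 0.24 ± 0.34, did not pass (adjusted p = 0.578), and with every barcode that held a UMI of Ptprc, Laptm5, Tyrobp or Fcer1g left out it was -0.78 (adjusted p = 0.0365). The same filter lowered the Ctsh excess of TEC to 2.32 over EC (adjusted p = 0.00015) and 1.90 over mural cells (adjusted p = 0.000979). It also took away 84.2%, 75.7% and 81.4% of the Aire-high TEC, and the part of this in the Ctsh values was not tested. With the narrower set of blood cell genes, TEC minus FB was 0.13 for Ctsh (adjusted p = 0.76).

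The carboxypeptidase Ctsz varied little between classes: 194, 131 and 104 CPM in TEC, 194, 144 and 135 in FB, 122, 87.7 and 66.5 in EC and 131, 87.5 and 71.4 in mural cells. Within each library FB exceeded EC and mural cells, by 0.76 ± 0.11 (adjusted p = 0.000439) and 0.75 ± 0.11 (adjusted p = 0.001) in the fit. Neither passed without the library block (0.74, adjusted p = 0.0992, and 0.73, adjusted p = 0.138). TEC was lower than FB by the fit (-0.50 ± 0.11, adjusted p = 0.00309), although the Foxn1Lin female values were equal to 3 digits, and the call was lost without the wild-type male (-0.42, adjusted p = 0.0701) without the Psmb11-high barcodes (-0.25, adjusted p = 0.171) or without the library block (-0.47, adjusted p = 0.251). With barcodes holding a UMI of the 4 blood cell genes named above left out, TEC minus FB was -1.64 (adjusted p = 1.02e-05). TEC minus EC was 0.26 ± 0.11 (adjusted p = 0.0608) and TEC minus mural cells 0.25 ± 0.11 (adjusted p = 0.0834), and both turned negative, at -0.90 and -0.92, under the same filter. The narrower blood cell filter left both positive and short of the threshold (0.07 and 0.09). Other settings took them past it: TEC minus EC was 0.29 with doublets left out (adjusted p = 0.0458), 0.52 without the Psmb11-high barcodes (adjusted p = 0.0119), 0.32 with RLE factors (adjusted p = 0.0261) and 0.32 in DESeq2 (adjusted p = 0.00396). TEC minus mural cells was 0.36 with stricter marker thresholds (adjusted p = 0.0286), 0.51 without the Psmb11-high barcodes (adjusted p = 0.0165), 0.30 with RLE factors (adjusted p = 0.0394) and 0.30 in DESeq2 (adjusted p = 0.0166). The filter that turned the sign took away 84.2%, 75.7% and 81.4% of the Aire-high TEC, the TEC richest in Ctsz, and the part of this in the change was not tested.

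The class order of Ctsc, the dipeptidyl peptidase, differed between libraries. In FB it stood at 26.7 CPM in the Foxn1Lin female (interval 24.1 to 29.5), 204 in the Foxn1Lin male (195 to 214) and 147 in the wild-type male (141 to 153). In mural cells it was at 10.8, 62.3 and 65.2 CPM, and in TEC at 37.1, 34.6 and 52.1. EC held the least in all 3 libraries, 6.51, 8.27 and 14.7 CPM. TEC were thus the highest class in the Foxn1Lin female, and FB in the other libraries.

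By the fit Ctsc was higher in FB than in EC (3.38 ± 0.56, adjusted p = 0.00122) and higher in TEC than in EC (1.84 ± 0.54, adjusted p = 0.0163). It was lower in TEC than in FB (-1.54 ± 0.53, adjusted p = 0.032) and lower in EC than in mural cells (-2.0 ± 0.56, adjusted p = 0.0197). Of these, only the FB excess over EC held on leaving out each library in turn, with 2.75 without the Foxn1Lin male (adjusted p = 0.0172). TEC minus EC was 2.08 without the wild-type male (adjusted p = 0.0892). TEC minus FB was -2.36 without the Foxn1Lin female (adjusted p = 0.000274), -0.84 without the Foxn1Lin male (adjusted p = 0.245) and -1.40 without the wild-type male (adjusted p = 0.213). EC minus mural cells was -1.56 without the Foxn1Lin male (adjusted p = 0.11) and -1.88 without the wild-type male (adjusted p = 0.178). TEC minus FB also fell short with stricter marker thresholds (-1.45, adjusted p = 0.0556), with the narrower blood cell filter (-1.49, adjusted p = 0.0556) and without the Psmb11-high barcodes (-1.29, adjusted p = 0.0916), and TEC minus EC without the library block (1.70, adjusted p = 0.0744). Without the Foxn1Lin female, FB minus mural cells (1.45, adjusted p = 0.00752) and TEC minus mural cells (-0.91, adjusted p = 0.0352) passed, neither of which did with all libraries (1.38, adjusted p = 0.0758, and -0.16, adjusted p = 0.827). With all libraries FB minus mural cells passed in DESeq2 (1.40, adjusted p = 0.042) and with no filter on low counts (1.52, adjusted p = 0.0402). Empty droplets held Ctsc at 23.7, 79.4 and 84.4 CPM, lowest in the Foxn1Lin female as in FB and mural cells, and their part in the class levels was not tested.

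Over the 8 members, 6 were called between TEC and EC (4 higher and 2 lower in TEC), beside 57.4% of all 16620 genes tested, and their median log2 fold change was 0.69 against 0.07 for all genes. Between TEC and FB 7 were called (2 higher, 5 lower) beside 56.1% of all genes, with a median of -0.81 against 0.05, and between TEC and mural cells 5 (3 higher, 2 lower) beside 50.6%, with a median of 0.04 against 0.09. FB and EC differed for 5 members, all higher in FB, beside 42.0% of genes, EC and mural cells for 5 (3 higher and 2 lower in EC) beside 39.8%, and FB and mural cells for 6, all higher in FB, beside 29.9%. The classes thus differed across much of the transcriptome, and the share of members called in the 3 TEC comparisons (6, 7 and 5 of 8) was not far above that background.

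The share of barcodes with a UMI told a different order from the summed level for Ctsl. With each barcode thinned to 2000 UMIs, Ctsl was found in 51.9%, 66.9% and 56.0% of TEC, 53.5%, 64.9% and 50.4% of EC and 71.8%, 77.2% and 75.5% of FB. Without thinning these shares were 77.4%, 79.8% and 82.1%, 73.8%, 84.9% and 76.7%, and 94.7%, 97.5% and 96.1%. FB had the highest share in all 3 libraries and TEC the highest sum, and the 48, 43 and 88 TEC barcodes with the most Ctsl UMIs held 76.8%, 54.3% and 78.1% of the Ctsl UMIs of TEC. No order of expression is read from the shares, since mural cells, the class with the least Ctsl, still gave 31.2%, 33.3% and 26.0% in the presence of free Ctsl RNA.

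Ctss was found in 11.3%, 7.54% and 7.03% of thinned TEC, against 1.56%, 0.378% and 0.855% of EC, and in 34.3%, 21.8% and 26.0% of TEC without thinning. The share in TEC lay above that in EC in every library, and whether EC lack the gene was not tested. Before thinning, the median barcode held 10988, 12387 and 15993 UMIs in TEC and 3889, 7355 and 6970 in EC. In mural cells of the Foxn1Lin male 0 of 436 thinned barcodes had a Ctss UMI, which allows a share of barcodes with a UMI at that depth of up to 0.688%. Unthinned, 1 of 449 did. Ctsk was found in 12.9%, 14.4% and 16.0% of thinned FB (34.2%, 45.1% and 45.9% unthinned) and in 0.866%, 1.22% and 0.586% of thinned TEC, an order that matched its sums. Thinning left out 16, 20 and 29 TEC barcodes with fewer UMIs.

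Within TEC, cells were set apart as Psmb11-high (cortical type; 78, 12 and 78 barcodes), Aire-high (medullary type; 120, 70 and 161) or the rest (279, 348 and 639), and the 1 to 4 barcodes high in both were left out. Ctsl and Ctss went opposite ways here. Ctsl stood at 8829, 6819 and 8640 CPM in Psmb11-high TEC, 106, 157 and 213 in Aire-high TEC and 809, 2447 and 823 in the rest, with no overlap. Psmb11-high TEC exceeded the rest by 2.70 ± 0.45 (adjusted p = 0.00743) and Aire-high TEC were below the rest by a log2 difference of -3.01 ± 0.46 (adjusted p = 0.00131). Between Aire-high and Psmb11-high TEC the fitted difference was -5.71 ± 0.51, a 52.4-fold difference (adjusted p = 7.91e-05). The excess of Psmb11-high TEC over the rest was 2.36 without the wild-type male (adjusted p = 0.0592), which left it short of the threshold, and 3.45 without the Foxn1Lin male (adjusted p = 0.00281). The Aire-high difference from the rest was -2.38 without that library (adjusted p = 0.00282), and Aire-high minus Psmb11-high was -5.04 with class thresholds 1 UMI lower (adjusted p = 0.000354). The Foxn1Lin male rest stood out with 2447 CPM (2402 to 2492), and there the median barcode held 1394 CPM against 378 and 510 in the other libraries.

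Ctss was at 13.6, 0 and 5.42 CPM in Psmb11-high TEC, 196, 174 and 152 in Aire-high TEC and 44.6, 25.2 and 31.1 in the rest. The 3 subsets did not overlap, with Aire-high TEC on top. Aire-high TEC exceeded the rest by 2.41 ± 0.29 (adjusted p = 0.000466) and Psmb11-high TEC by 4.55 ± 0.38 (adjusted p = 6.25e-05), and Psmb11-high TEC were below the rest (-2.14 ± 0.38, adjusted p = 0.00973), a call lost without the wild-type male (-1.98, adjusted p = 0.133), with marker thresholds 1 UMI lower (-1.99, adjusted p = 0.109) and with barcodes holding blood cell transcripts left out (-2.66, adjusted p = 0.0547). Psmb11-high minus the rest was larger without the Foxn1Lin female (-2.78, adjusted p = 0.0182) and with the narrower blood cell filter (-3.33, adjusted p = 0.00494). Aire-high minus Psmb11-high was 5.29 without the Foxn1Lin female (adjusted p = 0.000213), where 1 barcode held 12 of the 27 Ctss UMIs of Psmb11-high TEC, and Aire-high minus the rest was 3.09 with barcodes holding blood cell transcripts left out (adjusted p = 0.000997). The Foxn1Lin male Psmb11-high group, with 0 Ctss UMIs, was only 12 barcodes, which allows up to 9.63 CPM by the Poisson interval.

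Both genes were also looked for in the same barcodes. Ctsl and Ctss were found together in 52.5%, 47.1% and 54.0% of Aire-high barcodes, Ctss alone in 26.7%, 31.4% and 30.4% and Ctsl alone in 10.8%, 7.14% and 6.83%. In Psmb11-high TEC Ctsl was found without Ctss in 88.5%, 100% and 87.2% of barcodes, and Ctss without Ctsl in 0% in every library. After thinning to 2000 UMIs, Ctsl was found in 98.7%, 100% and 97.4% of Psmb11-high and 17.5%, 18.6% and 20.8% of Aire-high TEC, the latter below the share in mural cells, the class with the least Ctsl. The part of free RNA in that share was not tested. Ctss was found in 25.0%, 31.4% and 26.4% of thinned Aire-high TEC (79.2%, 78.6% and 84.5% unthinned) and in 3.85%, 0% and 0% of thinned Psmb11-high TEC (11.5%, 0% and 11.5% unthinned), where 0 of 12 and 0 of 77 thinned barcodes allow shares of barcodes with a UMI at that depth of up to 25.0% and 3.90%.

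**Figure D2:**
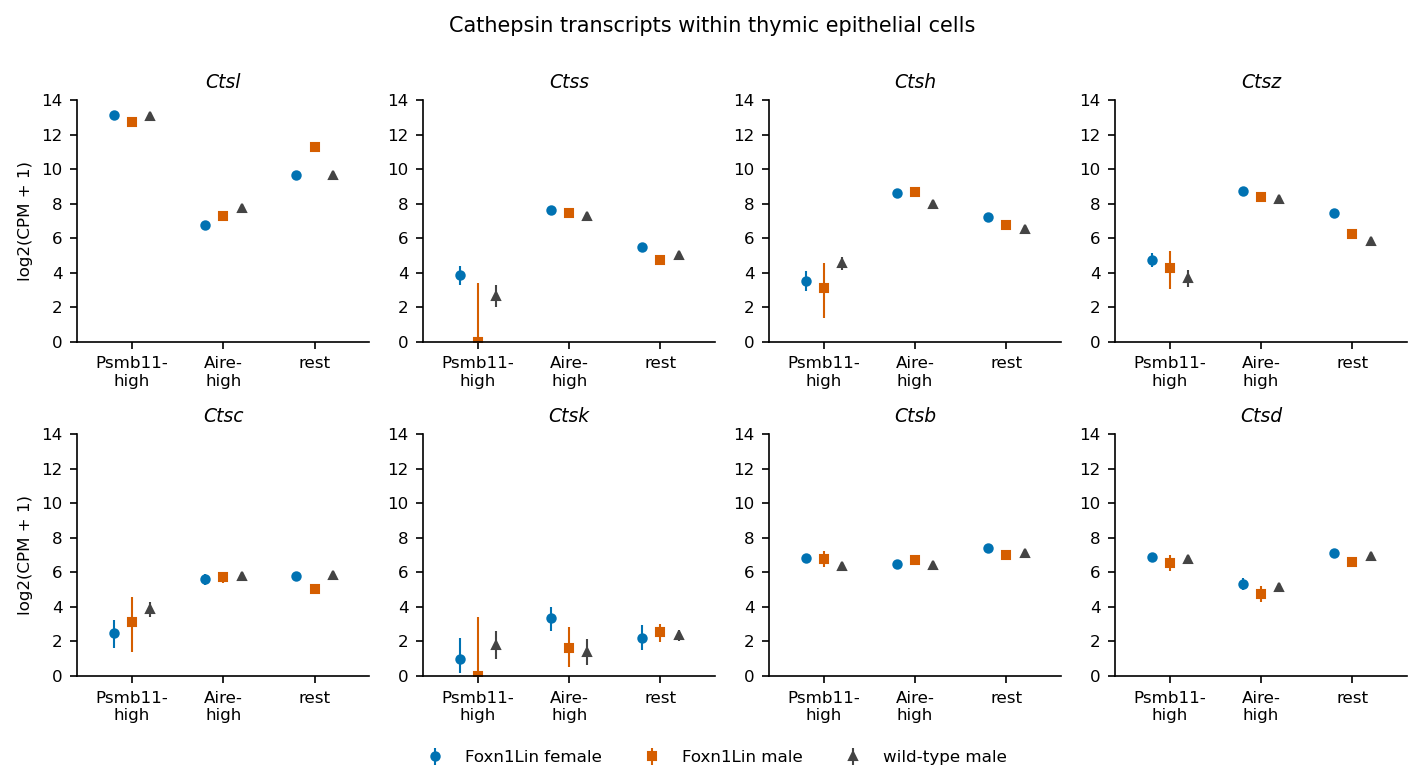
Level of each cathepsin as log2(CPM + 1) (vertical axis) in Psmb11-high, Aire-high and remaining TEC (horizontal axis), with 1 point per library and bars for exact Poisson 95% intervals of counting error. Ctsl was highest in Psmb11-high TEC, whereas Ctss, Ctsh and Ctsz were highest in Aire-high TEC in all 3 libraries.

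The exopeptidases Ctsh and Ctsz shared the direction of Ctss. Ctsh was at 392, 404 and 251 CPM in Aire-high, 151, 107 and 90.1 in the rest and 10.6, 7.83 and 22.4 in Psmb11-high TEC. Ctsz was at 431, 337 and 309 CPM in Aire-high, 172, 75.1 and 57.4 in the rest and 25.7, 18.3 and 11.9 in Psmb11-high TEC. For each gene the 3 subsets kept 1 order in every library, without overlap. Aire-high exceeded Psmb11-high TEC by 4.44 ± 0.38 for Ctsh (adjusted p = 6.5e-05) and 4.40 ± 0.26 for Ctsz (adjusted p = 1.94e-05). Against the rest, Aire-high TEC were higher by 1.59 ± 0.30 for Ctsh (adjusted p = 0.00359) and 1.98 ± 0.21 for Ctsz (adjusted p = 0.000252), and Psmb11-high TEC were lower for Ctsh (-2.84 ± 0.37, adjusted p = 0.00293) and Ctsz (-2.43 ± 0.25, adjusted p = 0.0016). The Ctsh excess of Aire-high TEC over the rest fell short of the threshold with stricter marker thresholds (1.18, adjusted p = 0.0694) and with barcodes holding blood cell transcripts left out (1.26, adjusted p = 0.0534). Without the wild-type male, in which 1 barcode held 23 of the 62 Ctsh UMIs of Psmb11-high TEC, Aire-high minus Psmb11-high was 5.43 for Ctsh (adjusted p = 0.00121) and Psmb11-high minus the rest -3.80 (adjusted p = 0.0106). With class thresholds 1 UMI lower these were 3.39 (adjusted p = 0.000173) and -1.52 (adjusted p = 0.0182), and with barcodes holding blood cell transcripts left out the latter was -2.18 (adjusted p = 0.0307).

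Of the broad degraders Ctsd and Ctsb, Ctsd was lower in Aire-high TEC than in both other subsets. Ctsd was at 39.3, 26.1 and 34.6 CPM there, against 117, 93.9 and 109 in Psmb11-high TEC and 136, 94.4 and 122 in the rest. The latter groups overlapped (-0.17 ± 0.14, adjusted p = 0.44), and Aire-high TEC lay below both, by log2 differences of -1.65 ± 0.15 from Psmb11-high TEC (adjusted p = 8.12e-05) and -1.82 ± 0.14 from the rest (adjusted p = 9.1e-05). Ctsb was at 88.9, 106 and 84.3 CPM in Aire-high, 112, 110 and 80.6 in Psmb11-high TEC and 172, 126 and 136 in the rest. In the Foxn1Lin male 1 barcode held 77 of the 155 Ctsb UMIs of Aire-high TEC. Ctsb was lower in Aire-high TEC than in the rest (-0.63 ± 0.17, adjusted p = 0.0166), which did not hold without the Foxn1Lin female (-0.51, adjusted p = 0.105) or the wild-type male (-0.61, adjusted p = 0.15), with class thresholds 1 UMI lower (-0.43, adjusted p = 0.0528) or with the narrower blood cell filter (-0.47, adjusted p = 0.096). No difference in Ctsb was detected between Aire-high and Psmb11-high TEC (-0.06 ± 0.17, adjusted p = 0.812).

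Ctsc was low in Psmb11-high TEC, at 4.53, 7.83 and 13.7 CPM, and did not separate Aire-high TEC (47.3, 51.4 and 55.5) from the rest (53.7, 31.7 and 57.7; log2 difference 0.14 ± 0.26). Aire-high TEC exceeded Psmb11-high TEC by 2.63 ± 0.34 (adjusted p = 0.00043) and the rest did so too, Psmb11-high minus rest being -2.49 ± 0.33 (adjusted p = 0.0032). With barcodes holding blood cell transcripts left out the latter was -1.69 (adjusted p = 0.0684). Without the wild-type male both were larger, at 3.31 (adjusted p = 0.0051) and -3.08 (adjusted p = 0.0298). These Ctsc values rest on 9, 3 and 38 UMIs in Psmb11-high TEC. Ctsk was near its floor in all 3 subsets, from 0 to 9.12 CPM, and passed in no comparison of them in this fit. With class thresholds 1 UMI lower, Aire-high minus the rest passed for Ctsk (-1.63, adjusted p = 0.0314), and without the Foxn1Lin male it was 0.18 (adjusted p = 0.908).

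Of the 8 members, 5 were called between Psmb11-high TEC and the rest (1 higher, 4 lower) beside 15.5% of the 14098 genes tested. Their median log2 fold change was -1.79 against -0.10 for all genes. Between Aire-high TEC and the rest 6 were called (3 higher, 3 lower) beside 38.5% of genes, with a median of -0.05 against -0.01, and between Aire-high and Psmb11-high TEC 6 were called (4 higher, 2 lower) beside 46.0%, with a median of 1.92 against 0.03. Without the wild-type male the count for Psmb11-high TEC and the rest was 3, beside 427 of the 13215 genes tested there.

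**Figure D3:**
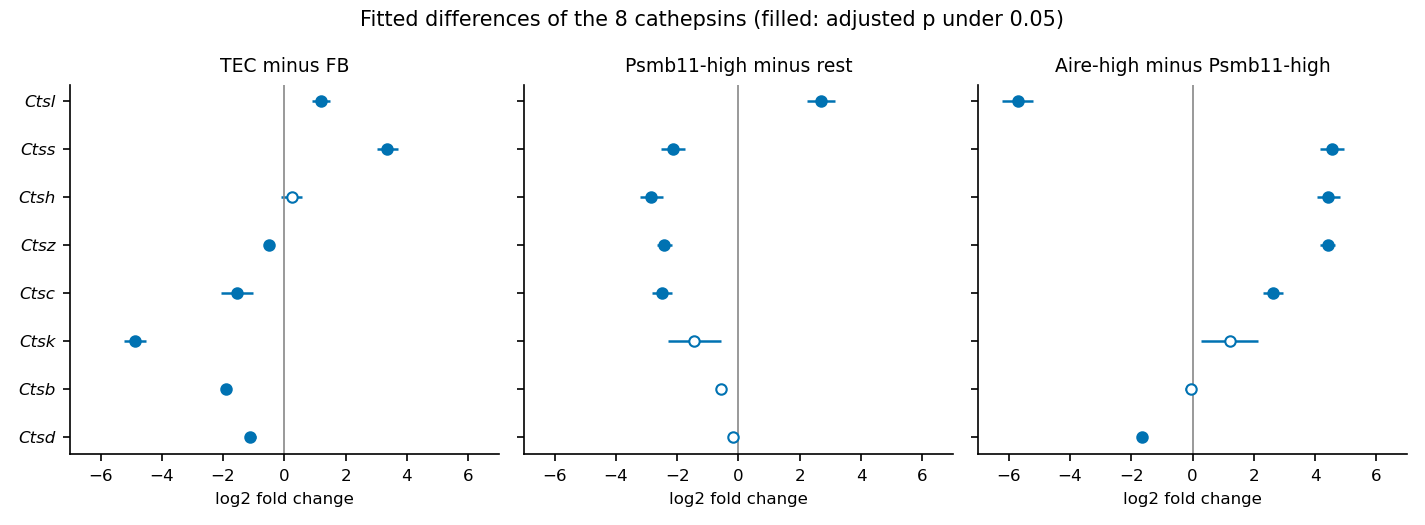
Fitted log2 fold change (horizontal axis, bars ± SE, n = 3 libraries) of the 8 cathepsins in TEC against FB, in Psmb11-high TEC against the rest and in Aire-high against Psmb11-high TEC, with filled points where the adjusted p from edgeR was under 0.05. Ctsl and Ctss point in opposite directions in both panels on TEC subsets.

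Transcripts listed as markers of blood cells were higher in Aire-high TEC along with Ctss, Ctsh and Ctsz. The summed level of the 8 blood cell markers was 1358, 1364 and 1169 CPM in Aire-high TEC, 302, 0 and 152 in Psmb11-high TEC and 531, 162 and 181 in the rest. That of 7 macrophage and dendritic cell markers was 555, 400 and 316, 49.3, 2.61 and 2.89, and 205, 59.9 and 51.1. In Aire-high TEC most of these sums came from Cd52 (865, 948 and 709 CPM), Laptm5 (323, 290 and 343) and Lyz2 (465, 359 and 246), whereas Ptprc, the CD45 gene that the sort selected against, was at 27.4, 10.3 and 9.5 and the dendritic cell marker Itgax at 0.57, 0 and 0.53. Tyrobp and Itgax were at 0 in Aire-high TEC of the Foxn1Lin male. With every barcode holding a UMI of Ptprc, Tyrobp, Cd3e, Cd79a, C1qa, C1qb, Csf1r, Adgre1 or Itgax left out, an alternative chosen after seeing the data, Aire-high TEC still exceeded Psmb11-high TEC for Ctsh (4.12, adjusted p = 4.15e-05), Ctsz (4.37, adjusted p = 5.78e-06) and Ctss (6.31, adjusted p = 1.99e-05), and Ctsl was still lower (-5.48, adjusted p = 2.90e-05). With the wider filter on Ptprc, Laptm5, Tyrobp and Fcer1g the excess still passed for each of these genes. It was smaller than with all barcodes for Ctsh (3.44, adjusted p = 0.000944) and Ctsz (3.63, adjusted p = 7.89e-05). For Ctss it was larger (5.75, adjusted p = 0.000231). This filter left 19, 17 and 30 Aire-high and 39, 12 and 62 Psmb11-high barcodes.

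The make-up of TEC differed between libraries, and with it the source of their Ctsl. Psmb11-high cells were 16.3%, 2.78% and 8.84% of TEC barcodes but held 85.4%, 18.5% and 69.6% of the Ctsl UMIs of TEC. Aire-high cells were 25.1%, 16.2% and 18.3% of TEC and held 0.906%, 1.62% and 2.35% of the Ctsl UMIs. They held 68.2%, 68.6% and 58.8% of the Ctss UMIs, 59.3%, 54.3% and 45.5% of the Ctsh UMIs and 57.3%, 58.2% and 61.5% of the Ctsz UMIs of TEC. In the Foxn1Lin male, where Psmb11-high cells were fewest, most Ctsl UMIs came from the remaining TEC.

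**Figure D4:**
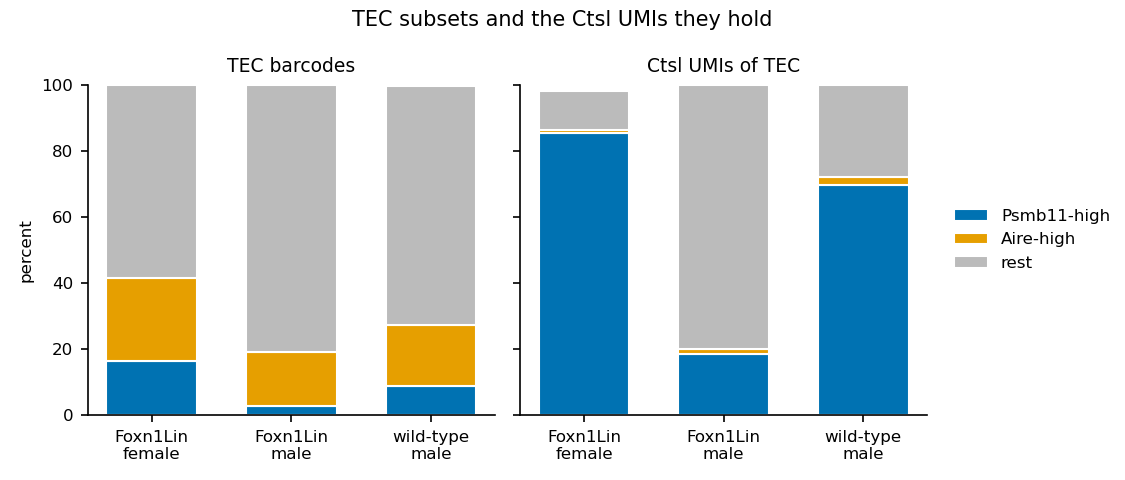
Percent of TEC barcodes (left) and of the Ctsl UMIs of TEC (right) in each TEC subset (vertical axis) for each library (horizontal axis). Psmb11-high barcodes were at most 16.3% of TEC and held up to 85.4% of the Ctsl UMIs; bars fall short of 100% where the 1 to 4 barcodes high in both markers were left out.

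The remaining TEC were described once more by Cldn3, a claudin of tight junctions, with at least 2 UMIs marking 88, 62 and 201 barcodes. Ctsh was higher in these Cldn3-high cells in each library, at 241, 281 and 163 CPM against 84.0, 51.5 and 25.0 in the others. Ctsd (191, 121 and 158 against 95.2, 86.1 and 89.9 CPM) and Ctsb (210, 140 and 165 against 145, 122 and 110) were also on the higher side in each library. In the Foxn1Lin female 1 barcode held 85 of the 244 Ctsd UMIs of Cldn3-high cells, and in the Foxn1Lin male 1 barcode held 61 of the 180 Ctsh UMIs of the others. Ctsl was lower in Cldn3-high cells, at 490, 1309 and 798 against 1049, 2808 and 846 CPM. The blood cell markers moved with Ctsh, Ctsd and Ctsb here: the 8 summed to 817, 380 and 253 CPM in Cldn3-high cells and 317, 92.7 and 117 in the others, and the 7 macrophage and dendritic cell markers to 422, 123 and 81.3 against 42.9, 39.8 and 24.1. Tyrobp was at 0 in Cldn3-high cells of both Foxn1Lin libraries and Itgax at 0 in those of all 3 libraries. These cathepsin differences, and the part of the markers in them, were not tested.

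Within FB, barcodes with at least 2 UMIs of Ptn, a secreted growth factor (444, 651 and 1206 barcodes), were set against those with at least 2 of Pi16, a marker of adventitial fibroblasts (688, 68 and 142). Ctsc was the only member called, beside 23.5% of the 12310 genes tested. It was at 89.3, 245 and 165 CPM in Ptn-high FB and 3.43, 19.0 and 24.8 in Pi16-high FB, with no overlap between them, a log2 difference of 3.66 ± 0.30 (adjusted p = 4.16e-06). It was 4.63 with stricter marker thresholds (adjusted p = 1.23e-06) and 4.25 without the wild-type male, and in the Foxn1Lin male the Pi16-high value rests on 14 UMIs. After thinning, Ctsc was found in 11.8%, 27.3% and 17.6% of Ptn-high barcodes (27.9%, 63.3% and 45.3% unthinned) and in 0.728%, 1.47% and 3.52% of Pi16-high barcodes (2.62%, 8.82% and 8.45% unthinned).

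The other 7 members did not pass between the FB subsets. Ctsl gave the smallest adjusted p among them (0.43 ± 0.16, adjusted p = 0.0697), and Ctsk, the fibroblast member, stood at 74.3, 96.3 and 105 CPM in Ptn-high and 71.3, 66.4 and 80.4 in Pi16-high FB (0.29 ± 0.16, adjusted p = 0.218). Ctss, at 3.33 to 5.85 CPM in Ptn-high and 0 to 5.22 in Pi16-high FB, gave 0.64 ± 0.49 (adjusted p = 0.412), and from 0.38 to 1.40 on leaving out each library in turn, the highest being without the Foxn1Lin female. The median log2 fold change of the 8 members was 0.28 against 0.04 for all genes. DESeq2 called 2 members here in place of 1, beside 2192 of 12310 genes.

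The library difference in Ctsc of FB went along with the share of these subsets. Ptn-high cells were 23.7%, 75.3% and 70.3% of FB barcodes and held 67.0%, 91.8% and 81.8% of the Ctsc UMIs of FB, and Pi16-high cells were 36.7%, 7.87% and 8.28% of FB. Within Ptn-high FB alone the Foxn1Lin female was still the lowest, at 89.3 CPM (78.8 to 101) against 245 (233 to 257) and 165 (157 to 173). The part of the subset shares in the library difference was not tested.

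**Figure D5:**
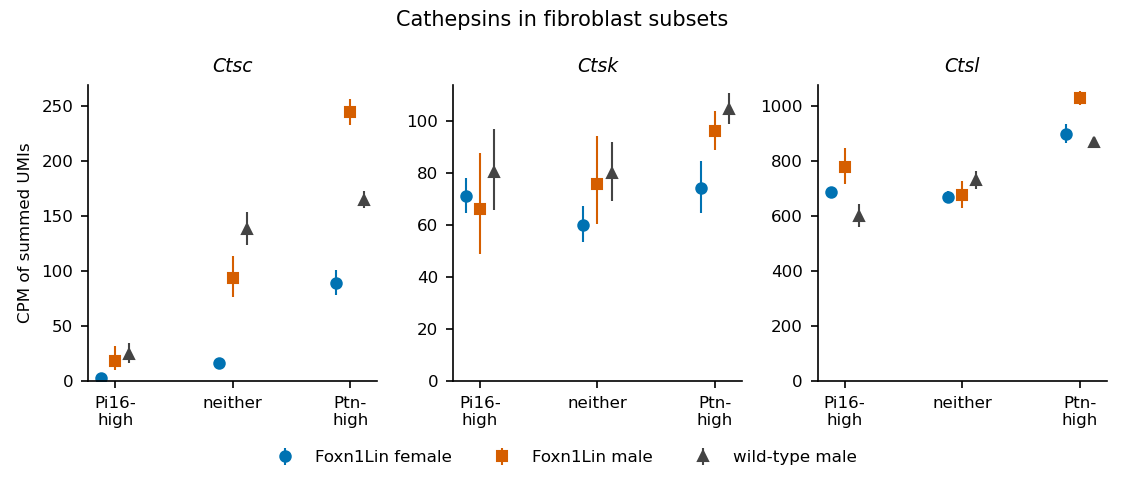
CPM of Ctsc, Ctsk and Ctsl (vertical axes, from 0) in Pi16-high, remaining and Ptn-high FB (horizontal axis), with 1 point per library and bars for exact Poisson 95% intervals of counting error. Ctsc was higher in Ptn-high than in Pi16-high FB in all 3 libraries.

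The other genes of the pathway were taken from lists by function. Of 13 genes of class II loading, 12 were higher and 1 lower in TEC than in FB (median log2 fold change 4.58), and 12 were higher and 1 lower than in EC (median 3.6). H2-Oa, a chain of the chaperone that restrains loading, was at 153, 115 and 101 CPM in TEC and 2.19, 0.695 and 0.786 in FB (6.52 ± 0.69, adjusted p = 6.39e-05), and H2-DMb2, a chain of the peptide editor, at 209, 180 and 144 against 4.51, 1.04 and 3.54 CPM. Ciita, the regulator that switches on class II genes, was at 121, 67.8 and 89.8 CPM against 2.39, 0.927 and 2.82. Between Aire-high and Psmb11-high TEC 9 of the 13 were higher and 2 lower (median 0.89), and among the latter was Prss16 (-7.20 ± 0.67, adjusted p = 9.46e-05), whose values are given above. Over all genes tested, 4902 were higher and 4420 lower in TEC than in FB, 5114 and 4430 against EC, 4379 and 4027 against mural cells, and 3556 higher and 2929 lower in Aire-high than in Psmb11-high TEC. The class II genes were thus higher in TEC nearly throughout, whereas the cathepsins split. Dendritic cells and B cells also express class II genes, and the sums of blood cell markers given above were higher in TEC than in FB and in Aire-high than in Psmb11-high TEC. With barcodes holding a UMI of Ptprc, Laptm5, Tyrobp or Fcer1g left out, 11 of the 13 were higher and 1 lower in TEC than in FB (median 4.03), 11 higher and 1 lower than in EC (median 3.19), and 5 higher and 2 lower in Aire-high than in Psmb11-high TEC (median 0.55). Over all genes tested the same filter left 3948 higher and 3705 lower, 4397 and 4004, and 1575 and 1500. The filtered Aire-high TEC were only 19, 17 and 30 barcodes, and the Psmb11-high TEC 39, 12 and 62.

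The inhibitors of cysteine cathepsins also split. Of 9 listed, 6 could be tested between TEC and FB, with 3 higher and 1 lower in TEC (median 0.38). Cst6, a secreted cystatin, was at 225, 89.5 and 223 CPM in TEC and 4.78, 11.1 and 4.06 in FB (4.24 ± 1.03, adjusted p = 0.00661). Within TEC, Cstb, the cytosolic stefin B, went with Ctsl: it was at 3822, 1381 and 4966 CPM in Psmb11-high and 349, 639 and 534 in Aire-high TEC (-2.79 ± 0.55, adjusted p = 0.00384). Cst3, the secreted cystatin C, was at 820, 752 and 687 against 309, 502 and 289 CPM (-1.05 ± 0.20, adjusted p = 0.00291). Stfa3, a stefin, was at 40.5, 6.17 and 16.1 CPM in Aire-high TEC and had 0 UMIs in Psmb11-high TEC, at least 34.5-fold higher by a floor of 3 UMIs over the group. Of the 5 inhibitors tested in that comparison 2 were higher and 2 lower, with a median of 0.17 that was the same with Stfa3 at its bound.

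Most other lysosomal genes were lower in TEC than in FB, and against EC and mural cells they split. Of 16, 3 were higher and 11 lower than in FB (median -0.89), 5 higher and 7 lower than in EC (median -0.13), 4 higher and 6 lower than in mural cells (median -0.21), and 2 higher and 6 lower in Aire-high than in Psmb11-high TEC (median -0.43). Sort1, a sorting receptor for lysosomal enzymes, was among the higher genes, at 42.2, 31.4 and 59.0 CPM in TEC and 5.74, 3.25 and 3.47 in FB (3.08 ± 0.24, adjusted p = 1.24e-05). Igf2r, a receptor that carries lysosomal enzymes by their mannose 6-phosphate tag, was lower, at 39.5, 36.2 and 37.8 against 148, 106 and 124 CPM (-2.05 ± 0.11, adjusted p = 3.34e-06), and so was the progranulin gene Grn (-2.23 ± 0.14, adjusted p = 5.94e-06). Of 6 further cathepsins 4 could be tested between TEC and FB: Ctse was higher in TEC (1.79 ± 0.53, adjusted p = 0.017) at 2.80, 1.70 and 2.35 CPM, and Ctsa, Ctso and Ctsf were lower (-1.39, -1.34 and -1.25).

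Across the 12 sums of class and library, the genes whose log2(CPM + 1) followed a member most closely among 7378 genes differed for each member. They were Epb41l4aos, Alkbh1 and D16Ertd472e for Ctsl (Pearson r up to 0.95), Micall1, Rab3gap1 and Dapp1 for Ctss (up to 0.98) and Efemp1, Entpd2 and Mrc2 for Ctsk (up to 0.98). For Ctsb they were Tgfbr2, Sqor and Mgst1 (up to 0.98), for Ctsh Tars, Kcnk2 and Rcn1 (up to 0.98) and for Ctsd Sele, March3 and Ramp2 (up to 0.95). For Ctsz they were Ift20, Bet1l and Slc25a39 (up to 0.94) and for Ctsc Plac8, Ptgs2 and Srek1 (up to 0.95). These are the best of many genes over sums that share libraries and depth, and they describe these sums only. No member was the closest match of another.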

How the data were processed

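Single-cell RNA-seq (10x Genomics 3′ kit) had been run on 3 libraries. The deposited matrices hold UMI counts per gene and barcode, which the authors made with Cell Ranger (7.01 per the submitters' processing notes); nothing was normalized, and raw matrices gave the droplets without a cell. Cathepsins and lists were chosen with earlier results of these data known. Counts were summed by class and library, in which 1 library is 1 replicate. Where nothing says otherwise, p-values measure only the spread over these libraries, which edgeR estimates with information shared across genes. This sharing weighs most in fits with a library left out. Sums were tested in edgeR 4.0.16 (quasi-likelihood, TMM, filterByExpr, library block; R 4.3.3), with Benjamini-Hochberg adjustment over all genes and a threshold of 0.05. The script was tested on simulated data. Scrublet (scanpy 1.11.5) marked 0, 5 and 2 doublets by its own threshold, which did not work, so the top 3.9% of scores, after the stated multiplet rate, were left out as an alternative (349, 148 and 219 barcodes with ties). Other alternatives left out low-quality barcodes (1000 genes or fewer with 20% or more mitochondrial counts) or barcodes with blood cell transcripts, moved each class threshold, or used RLE factors, DESeq2 1.42.0, no filter, no library block, or each library left out; filters on a narrower set of blood cell genes and on Psmb11-high TEC were chosen after seeing the data. Median UMIs per barcode were 4675, 7431 and 7947. From each list, up to 4 genes were named by the size of change among those past the threshold in TEC against FB or Aire-high against Psmb11-high TEC and changed the same way in 3 of 3 libraries, and for each member the 3 genes most alike. 1 gene that met this rule is not reported here.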

Additional observations from a re-analysis of the deposited data

Results flagged for a closer look

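For 2 members the direction of a class difference was opposite between libraries, each with the intervals of counting error apart in the Foxn1Lin female and Foxn1Lin male; the differences between libraries were not tested, since each group was 1 library. The log2 ratio of Ctsc CPM in TEC over FB was 0.47 in the Foxn1Lin female, -2.56 in the Foxn1Lin male and -1.49 in the wild-type male. That of Ctsc in TEC over mural cells was 1.78, -0.85 and -0.32. The log2 ratio of Ctsl CPM in FB over EC was 0.51, -0.34 and -0.09.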

How the results depend on the processing

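Of 52 member calls, 34 held under every alternative run and 18 did not, of which 2 reversed: with Psmb11-high barcodes left out of TEC, Ctsl was -0.21 in TEC minus EC and -0.19 in TEC minus FB. In that setting members called in TEC minus FB fell from 7 to 4, beside 9157 of 16641 genes (9322 of 16620 with all barcodes). Over all alternatives, calls stayed 672 times and were lost 36 times, 12 of them without the wild-type male. On leaving out each library in turn, calls between classes ranged from 25 to 35 (34 with all), within TEC from 14 to 17 (17 with all) and within FB stayed at 1. Members called ranged from 3 to 5 in EC minus mural cells. Beside them, 6293 of 16572 genes were called without the Foxn1Lin female, 3474 of 17411 without the Foxn1Lin male and 3580 of 16888 without the wild-type male. Members called also ranged from 3 to 5 in Psmb11-high TEC minus rest, beside 835 of 14545, 2409 of 14653 and 427 of 13215 genes in the same order. With barcodes holding blood cell transcripts left out, 3 members were called in Psmb11-high TEC minus rest, beside 631 of 9484 genes. TEC was then the highest class in 6 of 24 cases of member and library (11 with all barcodes). Under this filter 4 differences that had not passed turned: Ctsz to -0.90 (TEC minus EC) and -0.92 (TEC minus mural), Ctsh to -0.78 (TEC minus FB) and Ctsd to 0.017 (Psmb11-high minus rest), the first 3 now past the threshold. DESeq2 called 2 members within FB, beside 2192 of 12310 genes. Without the library block 6 calls were lost, and 3 members were called in FB minus EC, beside 4923 of 16620 genes. By share of barcodes TEC was highest in 7 of 24 cases thinned and 4 unthinned. RLE factors moved the median of all genes in Aire-high minus Psmb11-high TEC from 0.03 to 0.16. The other reversals were of differences that did not pass: 1 UMI lower thresholds gave Ctsl FB minus EC 0.00042, Ctsh EC minus mural 0.030, Ctsc Aire-high minus rest -0.15, Ctsk -0.13 and Ctsb 0.11 in Aire-high minus Psmb11-high; stricter thresholds gave Ctsc TEC minus mural 0.012, Ctsz EC minus mural 0.082 and Ctss FB minus mural -0.30; the narrower blood cell filter gave Ctsz EC minus mural 0.014, Ctss FB minus mural -0.27 and Ctsb Aire-high minus Psmb11-high 0.13; no filter gave Ctsz EC minus mural 0.072 and Ctsc Aire-high minus rest -0.0096; doublets left out, RLE and DESeq2 gave Ctsb Aire-high minus Psmb11-high 0.039, 0.061 and 0.063; TEC without Psmb11-high barcodes gave Ctsc TEC minus mural 0.10. Leaving out each library in turn spread Ctsc TEC minus mural from -0.91 to 0.35, Ctsl FB minus EC from -0.29 to 0.17, Ctsz EC minus mural from -0.058 to 0.029, Ctsk from -1.35 to 0.18 and Ctsc from -0.11 to 0.27 in Aire-high minus rest, Ctsk from -0.13 to 1.25 and Ctsb from -0.13 to 0.16 in Aire-high minus Psmb11-high, and Ctsh Ptn-high minus Pi16-high FB from -0.033 to 0.31. The causes were not tested. No paired analysis was possible because each group is 1 library, and the library block pairs classes within a library. Ctsk in TEC and Ctss outside TEC were near the floor, and the Foxn1Lin male gave 12 Psmb11-high barcodes.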
